A study of Mus musculus with 10 samples.

Results

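Expression of 10 genes of the first transcriptional response to a stimulus was followed in the intermediate lobe (IL) of the pituitary: Fos, Fosb, Fosl2, Jun, Junb, Jund, Egr1, Ier2, Atf3 and Nr4a1. They are the 10 rows, of 29527 in the table, whose Ensembl IDs carry these symbols. RNA of dissected IL was sequenced in bulk from 10 mice of 2 to 3 months, with 1 library per mouse, in 4 wild-type (WT), 3 p27-/- and 3 p27-/-;Sox2+/- animals. The p27-/- mice carry a germline null allele of Cdkn1b, the gene of the cell cycle inhibitor P27, in every tissue. The p27-/-;Sox2+/- mice carry the same null allele and have lost 1 copy of Sox2 in addition. No group with loss of a Sox2 copy alone is among these samples. Mice were kept on a mixed genetic background and both sexes were used. The values are normalised log2 expression values as deposited, on a scale that compresses small values, so that a difference between low values understates the fold change. They are not corrected for gene length. The 10 genes are therefore compared between samples and not ranked against each other. A lobe with fewer cells of a type and a lobe with less RNA per cell cannot be told apart in bulk RNA.

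Immediate early genes are transcribed within minutes of a stimulus without new protein synthesis, and most of their transcripts and proteins are short-lived. FOS and JUN proteins pair to form the AP-1 transcription factor, the ERK, JNK and p38 kinases and cAMP signalling switch their genes on, and serum response factor (SRF), ternary complex factors and CREB act at their promoters. In the pituitary, NR4A1 (also called NUR77) is known as an activator of Pomc downstream of corticotropin-releasing hormone, and melanotrophs of the IL are held under dopamine inhibition through the receptor DRD2.

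The samples carried the markers of the labelled tissue. Pomc, the hormone precursor of melanotrophs, had log2 values between 18.00 and 19.00, and Pax7, the melanotroph selector gene, between 11.45 and 11.97. RNA of neighbouring tissue was present in unequal amounts, since the mean log2 value of 6 anterior lobe markers ranged from 8.50 to 11.39 and that of 6 posterior lobe markers from 5.48 to 7.28. All 6 posterior lobe markers had a lower mean in both mutants than in WT, though 0 had an adjusted p under 0.05 by limma. Of 6 endothelial markers, Cldn5 had a mean of 1.83 and the other 5 had means between 4.78 and 6.76. Some markers differed between genotypes at an adjusted p under 0.05 by limma, as did 7.78% and 2.71% of all tested genes in the 2 mutants against WT. In p27-/-, Pcsk2 (log2 fold change 0.53) and Prrx1 (0.48) were higher and Fshb (-2.04), Kdr (-0.83) and Lum (-0.75) lower. The median of the 5 tested stem cell markers, Prrx1 among them, was -0.17. In p27-/-;Sox2+/-, Fshb (-2.27) and Kdr (-0.67) were lower. Cdkn1b was lower than WT in p27-/- (log2 fold change -0.43, adjusted p = 0.047) and in p27-/-;Sox2+/- samples (-0.72, adjusted p = 0.00854) by limma, with values between 7.73 and 8.27 left in the mutants, from a part of the gene that this table does not show. Sox2 was between 6.88 and 7.07 in p27-/-;Sox2+/- samples and between 7.08 and 7.75 in the others. Its log2 fold change in p27-/-;Sox2+/- was -0.46 against WT (adjusted p = 0.0811) and -0.29 against p27-/- (adjusted p = 0.791), neither past the threshold. WT replicate 1 stood apart for several of the genes described here and was high for markers of several cell types. All 6 macrophage markers were highest in this sample, with a mean log2 value of 6.81 against 5.92 to 6.42 in the other 9 samples. The mean of the fibroblast and mural markers was also highest there, at 8.36 against 7.33 to 8.10. So was that of the endothelial markers, at 5.64 against 5.02 to 5.63.

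RefSeq promoter sequences on GRCm38.p6 were used for 8 of the 10 genes, all but Egr1 and Ier2, and gene positions are those of RefSeq on the same build. The 250 bases before the start site are shown for Fos and Junb, the pair of genes that followed each other most closely between mice, and for Jund, another JUN family gene, whose r with Fos was 0.39. Capitals mark TGACG or its reverse complement CGTCA, the core of the cAMP response element that CREB and ATF proteins bind. The Fos window lies on chromosome 12 from 85473640 to 85473889 on the plus strand, directly upstream of the gene at 85473890 to 85477274. The Junb window lies on chromosome 8 from 84978749 to 84978998 on the minus strand, upstream of the gene at 84976909 to 84978748. The Jund window lies on the same chromosome from 70697489 to 70697738 on the plus strand, upstream of the gene at 70697739 to 70700616.
Fos: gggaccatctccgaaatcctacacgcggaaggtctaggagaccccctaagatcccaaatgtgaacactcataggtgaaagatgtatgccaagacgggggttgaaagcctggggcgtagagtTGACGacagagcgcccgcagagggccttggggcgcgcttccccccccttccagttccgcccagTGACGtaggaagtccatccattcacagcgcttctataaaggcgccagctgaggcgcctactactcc
Junb: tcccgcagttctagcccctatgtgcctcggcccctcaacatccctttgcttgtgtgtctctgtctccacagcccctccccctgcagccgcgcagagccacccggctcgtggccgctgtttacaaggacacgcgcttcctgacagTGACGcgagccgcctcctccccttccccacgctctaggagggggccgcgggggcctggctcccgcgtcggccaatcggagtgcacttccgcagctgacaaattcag
Jund: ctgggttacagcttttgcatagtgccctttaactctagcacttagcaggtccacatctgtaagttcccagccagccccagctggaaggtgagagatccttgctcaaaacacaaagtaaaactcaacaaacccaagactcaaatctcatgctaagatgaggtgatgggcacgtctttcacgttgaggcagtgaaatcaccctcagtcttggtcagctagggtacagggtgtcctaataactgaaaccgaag

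The Fos window holds 2 of these cores, 66 and 129 bases before the start, and the Junb window 1, at 106 bases. The Jund window holds none of these letters. Across the 8 genes, 5 had a core in the window (Fos, Junb, Fosb, Atf3 and Nr4a1, the last with 4), and 17.8% of 32851 promoters of the same length had one. The Nr4a1 window, on chromosome 15 from 101266596 to 101266845, lies inside the gene span given below. The Fosb window, on chromosome 7 from 19310046 to 19310295, overlaps the span of Fosb. Both windows thus precede a start site inside the span. GCGTGGGCG or GCGGGGGCG on either strand, letters that EGR proteins bind, were in 3 of the 8 windows (Fosb, Fosl2 and Nr4a1) and in 3.06% of all promoters. The full element TGACGTCA, which contains the core on both strands, was in 0 of the 8 windows and in 1.55% of all promoters, the AP-1 letters TGAGTCA in 0 and in 4.46%, and the CArG box of SRF in 0 and in 1.47%. These counts describe letters in the windows and no binding was measured. Bases further upstream, and the promoters of Egr1 and Ier2, were not searched. Among the genes with a core, the r with Fos was 0.91 for Junb, 0.46 for Fosb, 0.27 for Atf3 and 0.14 for Nr4a1. Among those without one, it was 0.39 for Jund, 0.35 for Fosl2 and 0.23 for Jun. A relation between cores and covariation was not tested.

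The FOS family has 3 members here. Fos (ENSMUSG00000021250) had log2 values of 6.08, 5.66, 5.35 and 5.32 in WT, 5.95, 5.51 and 6.61 in p27-/- and 5.92, 5.49 and 5.29 in p27-/-;Sox2+/- samples. The highest value was that of p27-/- replicate 3, the next that of WT replicate 1, and the 3 genotypes overlapped. Fosb (ENSMUSG00000003545, chromosome 7, 19302696 to 19310118) had 5.82, 4.62, 4.64 and 4.41 in WT, 4.52, 4.63 and 4.43 in p27-/- and 4.52, 4.62 and 4.28 in p27-/-;Sox2+/- samples. WT replicate 1 was 1.19 above the next of the 10 samples, and the other 9 lay within 0.36 of each other. Fosl2, which encodes the FOS-related subunit FRA-2 (ENSMUSG00000029135, chromosome 5, 32136472 to 32157840), had 8.58, 8.88, 7.79 and 8.47 in WT, 8.80, 8.02 and 8.82 in p27-/- and 8.13, 8.84 and 8.73 in p27-/-;Sox2+/- samples. Each genotype held a sample at 8.80 or above and one at 8.13 or below, and WT alone spanned the whole range of the series.

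The JUN family showed a different picture for each member. Jun (ENSMUSG00000052684, chromosome 4, 95049036 to 95052222) had 8.33, 7.97, 7.87 and 7.61 in WT, 8.0, 7.63 and 7.20 in p27-/- and 7.69, 7.53 and 6.96 in p27-/-;Sox2+/- samples. Group means ran from 7.95 ± 0.30 (SD, n = 4) in WT over 7.61 ± 0.40 (SD, n = 3) in p27-/- to 7.39 ± 0.39 (SD, n = 3) in p27-/-;Sox2+/- samples, and the ranges of neighbours in this order overlapped. Junb (ENSMUSG00000052837), a JUN protein that is a weaker activator than JUN at many AP-1 sites, had 4.64, 4.14, 3.89 and 3.96 in WT, 4.04, 3.95 and 4.38 in p27-/- and 4.44, 4.21 and 4.05 in p27-/-;Sox2+/- samples. Its high samples were WT replicate 1, p27-/-;Sox2+/- replicate 1 and p27-/- replicate 3, which were also the samples furthest above their genotype mean for Fos. Jund (ENSMUSG00000071076), the JUN protein that is present without a stimulus in most cells, had 7.08, 6.38, 6.70 and 6.32 in WT, 6.59, 6.70 and 6.65 in p27-/- and 6.72, 6.74 and 6.68 in p27-/-;Sox2+/- samples. The mutant samples lay within 0.15 of each other, between the extremes of WT.

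The remaining genes encode EGR1, a zinc finger factor that SRF and ERK signalling induce, the small regulator IER2, the stress-induced AP-1 partner ATF3 and the nuclear receptor NR4A1. Egr1 (ENSMUSG00000038418) had 8.94, 8.29, 8.42 and 7.78 in WT, 8.59, 8.63 and 9.16 in p27-/- and 9.31, 9.61 and 8.44 in p27-/-;Sox2+/- samples. The first 2 of the p27-/-;Sox2+/- samples were the highest of all 10, and the third lay within the WT range. Ier2 (ENSMUSG00000053560, chromosome 8, 84661331 to 84662852) had 5.63, 5.44, 5.16 and 4.86 in WT, 4.87, 4.88 and 4.99 in p27-/- and 5.10, 5.07 and 4.93 in p27-/-;Sox2+/- samples. All but 1 of the WT samples were above all mutant samples and WT replicate 4 was below them. Nr4a1 (ENSMUSG00000023034, chromosome 15, 101253902 to 101274795) had 6.27, 6.62, 5.93 and 5.88 in WT, 5.76, 6.0 and 6.15 in p27-/- and 5.83, 6.49 and 6.34 in p27-/-;Sox2+/- samples, which overlapped throughout. Atf3 (ENSMUSG00000026628, chromosome 1, 191170296 to 191183333) lay between 2.83 and 3.13 in all samples, a range of low values in which this table compresses differences. Its 10-sample mean of 2.97 was under the minimum of 3.32 set for testing, so that 9 of the 10 genes were tested.

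**Figure D1:**
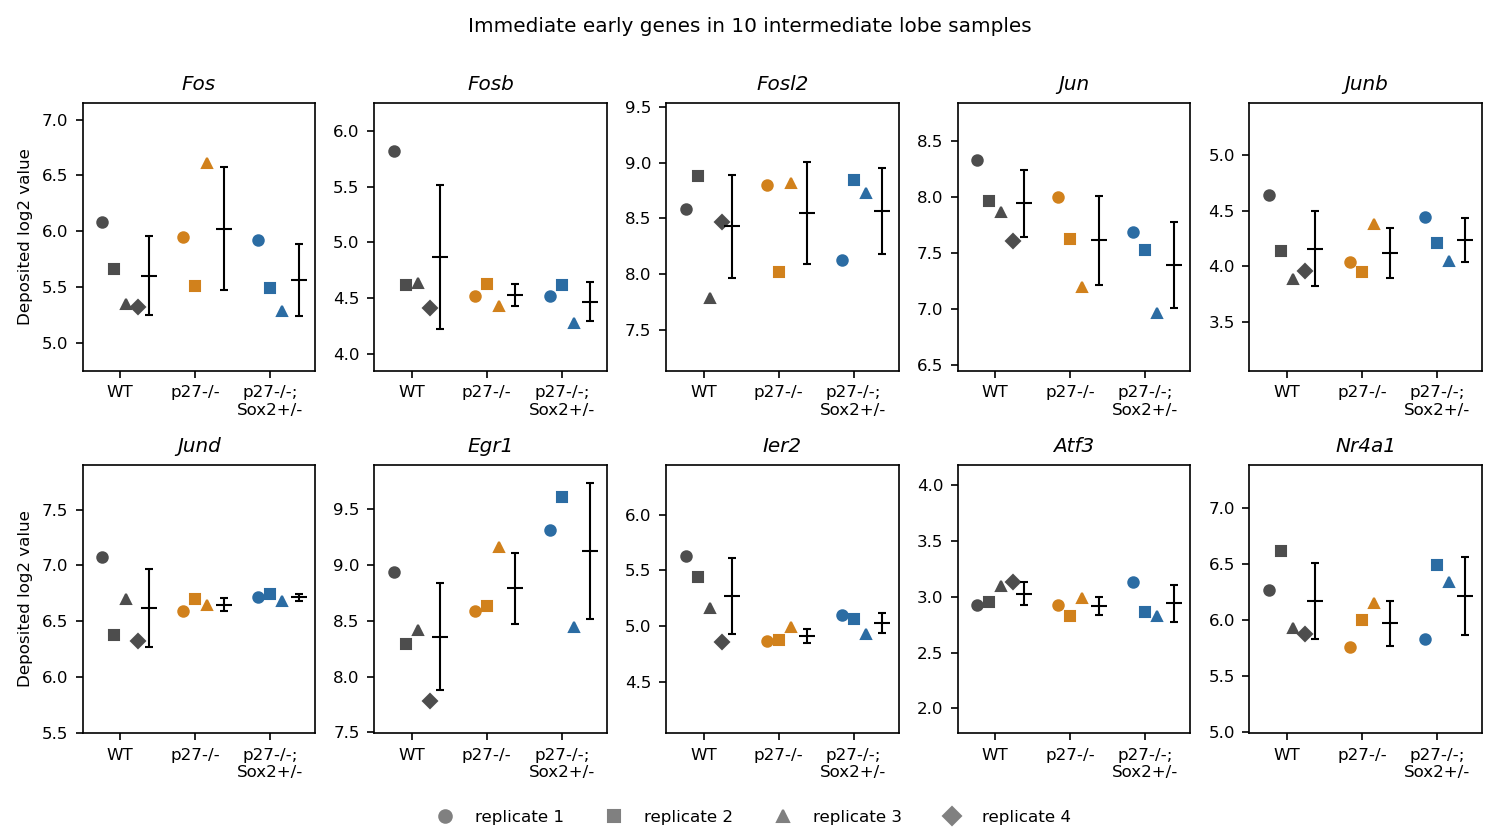
Deposited log2 value (y axis, every panel spanning the same range) of each of the 10 immediate early genes in the 10 samples by genotype (x axis). Symbols give the replicate number, and black marks show the mean with its SD for 4 WT, 3 p27-/- and 3 p27-/-;Sox2+/- samples. The lone high Fosb value of 5.82 is WT replicate 1, and the high Fos value of 6.61 is p27-/- replicate 3.

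Loss of p27 alone came with no call among the immediate early genes. With limma, 0 of 9 reached an adjusted p under 0.05 in p27-/- against WT, and the share over all 17268 genes tested was 7.78%. At an unadjusted p under 0.05 there was 1, Ier2, and 24.1% of all tested genes. Ier2 had a log2 fold change of -0.36 (95% interval -0.69 to -0.03, adjusted p = 0.174), which was -0.24 without WT replicate 1 and -0.50 without WT replicate 4 (adjusted p = 0.298 and 0.0545). Egr1 (0.43, interval -0.15 to 1.01) and Fos (0.42, interval -0.10 to 0.94) had the largest positive differences, with adjusted p = 0.356 and 0.313. With single samples left out Egr1 ranged from 0.24 (without WT replicate 4; 0.25 without p27-/- replicate 3) to 0.63, and Fos from 0.13 (without p27-/- replicate 3) to 0.68 (without p27-/- replicate 2). Jun stood at -0.33 (interval -0.79 to 0.12, adjusted p = 0.359) and Nr4a1 at -0.20 (interval -0.62 to 0.21, adjusted p = 0.56). Jun was -0.13 without p27-/- replicate 3, -0.20 without WT replicate 1 and -0.53 without p27-/- replicate 1, and Nr4a1 was -0.06 without WT replicate 2 and -0.10 without p27-/- replicate 1. Fosb was -0.34 on average (interval -0.88 to 0.19, adjusted p = 0.43), a difference that shrank to -0.03 without WT replicate 1. Fosl2, Jund and Junb had log2 fold changes of 0.12, 0.03 and -0.03. The median of the 9 genes was -0.03, against 0.01 for all tested genes.

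The compound mutant showed the largest differences from WT, in Egr1 and Jun, in opposite directions. With limma, 0 of 9 reached an adjusted p under 0.05 against WT, and 2.71% of all tested genes did. At an unadjusted p under 0.05 there were 2, Egr1 and Jun, and 17.8% of all tested genes. Egr1 had a log2 fold change of 0.76 (95% interval 0.18 to 1.35, adjusted p = 0.154), or 1.70-fold. Weighting the samples by their fit (array weights) gave 1.16 with an adjusted p = 0.0152, the lowest of all alternatives, where it otherwise ranged up to 0.5. Leaving out p27-/-;Sox2+/- replicate 3 gave 1.10 and leaving out replicate 2 of that genotype 0.52. Jun had a log2 fold change of -0.55 (interval -1.01 to -0.10, adjusted p = 0.179), and between -0.70 and -0.34 with a sample left out, the latter without p27-/-;Sox2+/- replicate 3. Fosb stood at -0.40 (interval -0.94 to 0.14, adjusted p = 0.427), and at -0.08 without WT replicate 1. The other 6 genes lay between -0.24 for Ier2 and 0.14 for Fosl2. The median of the 9 was 0.04, against 0.01 for all tested genes.

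Losing a copy of Sox2 on the p27-/- background was not followed by a detectable difference in these genes. With limma, 0 of 9 reached an adjusted p under 0.05 in p27-/-;Sox2+/- against p27-/-, 0 had an unadjusted p under 0.05, and 0.145% of all tested genes passed the adjusted threshold and 6.65% the unadjusted one. Fos had the largest difference, at -0.46 (95% interval -1.02 to 0.10, adjusted p = 0.861), and -0.17 without p27-/- replicate 3. The intervals of Egr1 (-0.29 to 0.95) and Jun (-0.70 to 0.26) leave room for differences of the size seen against WT. In 0 of the 10 genes, Atf3 included, were the samples of 2 genotypes fully apart. Of all tested genes, 20.6% had samples that did not overlap between p27-/- and WT, 15% between p27-/-;Sox2+/- and WT and 15.3% between the mutants. With shares of this size, 10 genes are too few to set 0 apart from them, and no test was made. The first and the second comparison share the WT samples, and the first and the third the p27-/- samples.

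**Figure D2:**
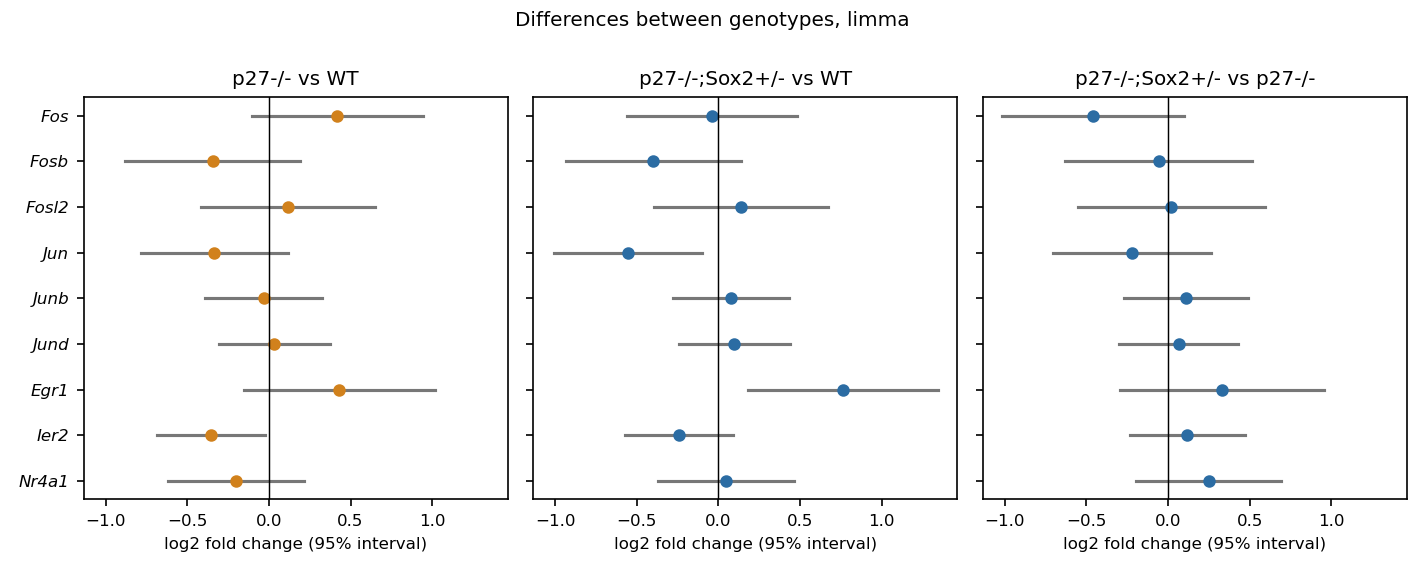
Log2 fold change (x axis) of the 9 tested immediate early genes (y axis) in the 3 comparisons, one panel each, with the 95% interval of limma as a line. The intervals of Ier2 in p27-/- and of Jun and Egr1 in p27-/-;Sox2+/- against WT lie beside 0, and none of the 9 genes passed the adjusted threshold.

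Most of these genes had a wide spread between mice of the same genotype, pooled over the 3 genotypes. The within-genotype SD was 0.48 for Egr1, 0.44 for Fosl2, 0.43 for Fosb and 0.41 for Fos on the log2 scale, against a median of 0.15 over the tested genes. Fewer than 2% of tested genes varied more than any of these 4, with shares of 1.06% for Egr1, 1.38% for Fosl2, 1.40% for Fosb and 1.67% for Fos. Jun (SD 0.36) was exceeded by 2.76% of tested genes, Nr4a1 (0.31) by 4.67%, Junb (0.27) by 7.81%, Jund (0.23) by 14.4% and Ier2 (0.23) by 15.2%. Atf3, at the low end of the scale, had an SD of 0.12. No test was made of these shares. They are taken over tested genes of every level, on a scale that compresses low values such as those of Junb and Fosb. A comparison with genes of similar level was not made. By genotype, the SD of Fosb was 0.64 in WT, 0.10 in p27-/- and 0.17 in p27-/-;Sox2+/- samples. In the same order it was 0.35, 0.06 and 0.03 for Jund and 0.34, 0.06 and 0.09 for Ier2. The spread of Fosb, Jund and Ier2 thus lay mainly in WT, that of Fosb in WT replicate 1. An SD of 0.48 corresponds to a factor of 1.40 between a mouse and the mean of its genotype. The limma intervals do not rest on this SD alone, since limma moderates the spread of each gene over all tested genes. The resulting standard error for Egr1 was 0.27 in p27-/- against WT.

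**Figure D3:**
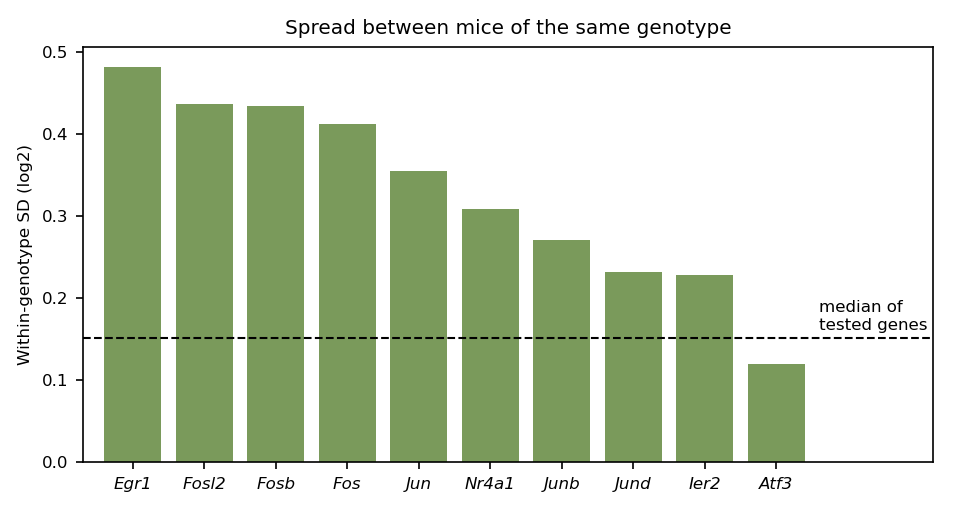
SD of the log2 value around the genotype means (y axis) over 10 samples for each of the 10 immediate early genes (x axis), with the median of the 17268 tested genes, 0.15, as a dashed line. All but Atf3 lie above the line, with Egr1 the highest at 0.48.

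The samples in which the genes were high were partly shared. WT replicate 1 was the highest of all 10 samples for 5 of the 10 genes, Fosb, Jun, Junb, Jund and Ier2, and for 13.6% of all tested genes. WT replicate 2 was the highest for Fosl2 and Nr4a1, p27-/- replicate 3 for Fos, p27-/-;Sox2+/- replicate 2 for Egr1 and replicate 1 of that genotype for Atf3. Averaged over the 9 tested genes, each centred on its genotype means and scaled to an SD of 1, the samples ran from 1.46 in WT replicate 1 to -1.08 in WT replicate 4, and from -0.54 to 0.42 among the mutants. The largest contrast between mice was thus within the WT group.

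Covariation was measured after subtracting the genotype mean from each value, so that it reflects differences between mice of the same genotype. Over 10 samples, 18 of the 45 pairs of genes had a Pearson r above 0.5, and the median r was 0.35. Each gene taken alone had an r above 0.5 with between 8.66% (Jun) and 16.0% (Fosb) of all tested genes, and the median r of a member with the tested genes lay between -0.02 and 0.01. An exact permutation test within genotypes, two-sided, allows 864 arrangements and a smallest p of 0.00116, and 10 of the 45 pairs had an unadjusted p under 0.05, before any allowance for the number of pairs. Pairs with a p above it are not thereby shown to vary independently.

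Fos and Junb formed the closest pair. Their r was 0.91 (Spearman rho 0.87, exact permutation p = 0.00231 for r and 0.00463 for rho, 10 samples), and 0.0811% of tested genes followed Fos as closely as Junb did. Without WT replicate 1 and p27-/- replicate 3, the samples furthest from the median of Fos, r was 0.89, and without WT replicate 1 alone it was 0.96. The pair was picked as the highest r of the 45, and the p-values of named pairs are not adjusted for such a choice. Fos values above the genotype mean came with Junb values above it in WT replicate 1, p27-/- replicate 3 and p27-/-;Sox2+/- replicate 1, 1 mouse of each genotype. Egr1 and Ier2 covaried with both: Fos with Egr1 gave r = 0.68 (rho 0.68, exact permutation p = 0.037), Fos with Ier2 r = 0.66 (rho 0.78, exact permutation p = 0.0116), Junb with Egr1 r = 0.73 (rho 0.71, exact permutation p = 0.044) and Junb with Ier2 r = 0.78 (rho 0.94, exact permutation p = 0.0324). Without the 2 samples furthest from the median of the first gene these 4 values were 0.47, 0.52, 0.52 and 0.60. Egr1 with Ier2 gave r = 0.74 (rho 0.71, exact permutation p = 0.0127), and 0.69 with 2 samples left out in the same way.

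Fosb and Jund formed another close pair, whose covariation rested mainly on 1 mouse. Their r of 0.90 (rho 0.70, exact permutation p = 0.00463) fell to 0.51 without WT replicate 1, and to 0.45 without WT replicates 1 and 4, the samples furthest from the median of Fosb. Fosb with Junb went from r = 0.75 to 0.04, Junb with Jund from 0.61 to -0.20 and Fos with Fosb from 0.46 to -0.08 when WT replicate 1 was left out. Fosb with Jun (r = 0.64, rho 0.58, exact permutation p = 0.0139) was 0.73 without that sample, and Fosb with Egr1 was 0.67 with it and 0.68 without it. Macrophage markers moved with some of these genes, the mean of the 6 markers having an r of 0.83 with Jund and 0.67 with Fosb, but 0.30 with Fos, 0.45 with Junb and 0.12 with Jun. With the averaged profile of the 9 genes it was 0.42, and -0.23 without WT replicate 1. The 6 stem cell markers had an r of -0.71 with that profile (-0.50 without WT replicate 1), the 6 posterior lobe markers -0.44 (-0.71) and the melanotroph markers 0.61 (0.19). The mean of 5 melanotroph markers had an r of 0.90 with Jund, 0.81 with Fosb and 0.38 with Fos. The mean of 6 pituitary stem cell markers had an r of -0.75 with Junb and -0.63 with Fos. The part of these cell types in the covariation was not tested.

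Fosl2 and Nr4a1 had their highest r with each other. It was 0.64 (rho 0.81, exact permutation p = 0.088 for r and 0.0208 for rho), and 0.80 without WT replicate 3 and p27-/- replicate 2. Fos with Fosl2 gave r = 0.35 and Fos with Nr4a1 0.14, with exact permutation p = 0.402 and 0.718. Nr4a1 and Atf3 had the most negative value of the 45 pairs, r = -0.75 (rho -0.55, exact permutation p = 0.0521), which is on the compressed scale of Atf3. Jun shared an r above 0.5 with Fosb, Ier2 and Egr1 (0.64, 0.55 and 0.50), while with Fos, its AP-1 partner, r was 0.23 (rho 0.36, exact permutation p = 0.594). These values depended on single samples. Fos with Jun had r = 0.57 without WT replicate 1 and p27-/- replicate 3, and -0.01 without WT replicate 1 alone. Without WT replicate 1, Jun with Fosb, Ier2 and Egr1 had 0.73, 0.35 and 0.33.

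**Figure D4:**
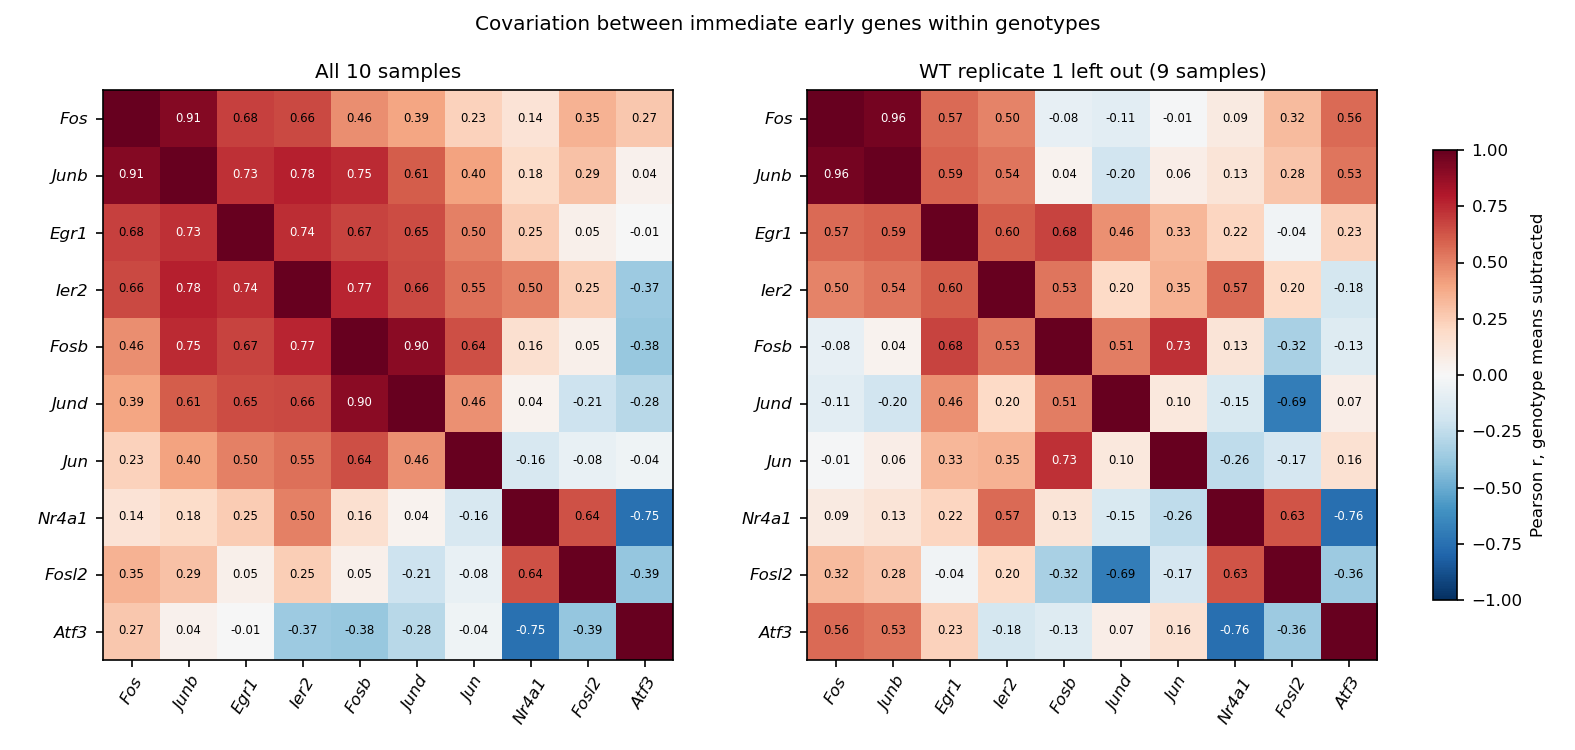
Pearson r between each pair of the 10 immediate early genes after subtracting the genotype means, as colour and number, over all 10 samples (left) and without WT replicate 1 (right). The block of Fos, Junb, Egr1 and Ier2, picked after the values were seen, stays between 0.50 and 0.96 on the right. Fos with Fosb goes from 0.46 to -0.08 and Junb with Jund from 0.61 to -0.20.

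**Figure D5:**
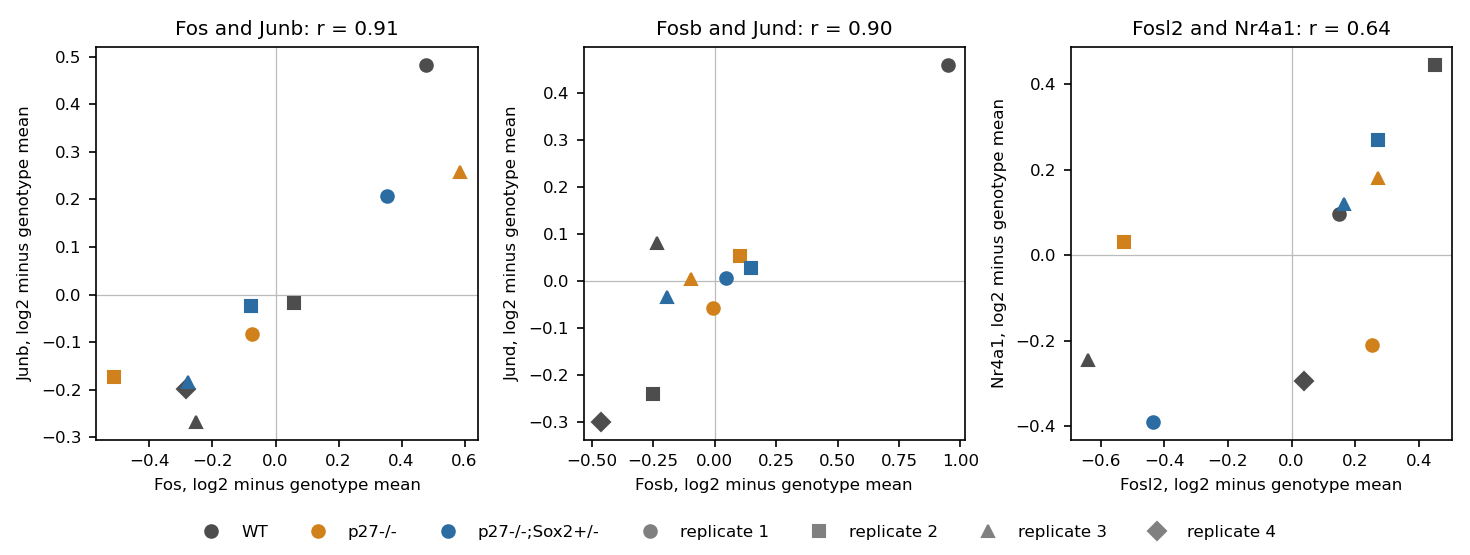
Log2 value minus the genotype mean for 3 pairs of genes, 1 point per sample, with genotype as colour and replicate number as symbol. Fos and Junb (left) spread along a line with samples of all 3 genotypes at its upper end, the r of 0.90 of Fosb and Jund (middle) has WT replicate 1 far from the other points, and Fosl2 and Nr4a1 (right) have an r of 0.64.

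The genes whose profiles were most like that of Fos included interferon-stimulated genes. Of the 8 genes with the highest r with Fos over the 10 samples, Itgax, which encodes the CD11c integrin of dendritic cells and macrophages, had r = 0.98, and the interferon-stimulated Ifi44 and Ifit1 had 0.98 and 0.97. Angptl7 (0.95), Fam49a (0.94), Gsg2, which encodes the mitotic kinase haspin (0.93), Ppfia3 (0.93) and Apol9b (0.93) followed. Ifit1 had log2 values of 7.63, 6.89, 6.74 and 6.67 in WT, 7.10, 6.52 and 8.05 in p27-/- and 6.93, 6.54 and 6.50 in p27-/-;Sox2+/- samples. It was high in WT replicate 1 and p27-/- replicate 3, as Fos was, and without these 2 samples its r with Fos was 0.94. The profile averaged over the 9 genes was most like those of Gtf3c4, which encodes a subunit of transcription factor IIIC (r = 0.96), the tubulin genes Tubb6 (0.96) and Tubb5 (0.94), Sf3b3, which encodes a splicing factor (0.95), Slc35d3 (0.94) and 3 genes without a symbol in the name table (ENSMUSG00000094832, ENSMUSG00000099112 and ENSMUSG00000102899, 0.95, 0.95 and 0.94). These values were picked as the highest among 17268 genes, and no p is given for them.

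Beyond the 10 genes, the called shares of the other immediate early genes were near those of all tested genes in p27-/- and somewhat above in p27-/-;Sox2+/-, on counts of 3 and 2. Of 48 further immediate early genes, 41 were tested, and 3 rose in p27-/- against WT: Id2, Trib1 and Btg2. Id2, an inhibitor of helix-loop-helix factors, had 7.61, 8.06, 7.89 and 7.70 in WT, 8.69, 8.65 and 8.43 in p27-/- and 7.84, 8.13 and 8.22 in p27-/-;Sox2+/- samples. All p27-/- samples were above all others, with a log2 fold change of 0.77 against WT (standard error 0.13, adjusted p = 0.0039, past the threshold in all 19 alternatives). Between the mutants Id2 differed by -0.53 (adjusted p = 0.241). Trib1, a pseudokinase that acts on MEK and C/EBP proteins, rose by 0.75 in p27-/- (standard error 0.15, adjusted p = 0.00955, past the threshold in all 19) and by 0.61 in p27-/-;Sox2+/- samples (standard error 0.15, adjusted p = 0.0448). Its values were 6.72 to 7.34 in WT, 7.72 to 7.82 in p27-/- and 7.41 to 7.91 in p27-/-;Sox2+/- samples, so that both mutants were above WT, although the second call held in 7 of 19 alternatives. Btg2, an antiproliferative gene, rose by 0.42 in p27-/- samples (standard error 0.12, adjusted p = 0.0474), which held in 6 of 19. Plk2, a polo-like kinase gene, rose by 0.62 in p27-/-;Sox2+/- samples against WT (standard error 0.13, adjusted p = 0.0241), and was lost without WT replicate 4, p27-/-;Sox2+/- replicate 1 or replicate 2 and in 2 other alternatives. In this list 3 of 41 genes were called in p27-/- and 2 of 41 in p27-/-;Sox2+/- against WT, or 7.32% and 4.88% beside 7.78% and 2.71% of all tested genes. At an unadjusted p under 0.05 there were 15 and 11 of 41 against WT, or 36.6% and 26.8%, beside 24.1% and 17.8% of all tested genes. Between the mutants 0 were called and 7 had an unadjusted p under 0.05, or 17.1% beside 6.65%, and Rgs2 had the largest difference, 0.59 (adjusted p = 0.134). The lowest values were those of Ctgf (-0.50, adjusted p = 0.19) in p27-/- and Hes1 (-0.37, adjusted p = 0.117) in p27-/-;Sox2+/- samples against WT. The median differences of the list were 0.02, 0.00 and -0.03 in the 3 comparisons, against 0.01, 0.01 and 0.00 for all tested genes.

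The other AP-1 and ATF subunits had 12 tested genes, of which Atf4, the translation-controlled stress factor, rose in p27-/- against WT (0.32, standard error 0.08, adjusted p = 0.036, held in 8 of 19 alternatives). This call is 8.33% of the list, beside 7.78% of all tested genes. At an unadjusted p under 0.05 there were 3 of 12, or 25%, beside 24.1%. None passed in the other comparisons, beside 2.71% and 0.145% of all tested genes. There 1 and 2 had an unadjusted p under 0.05, or 8.33% and 16.7%, beside 17.8% and 6.65%. The extremes were Maf at 0.44 (adjusted p = 0.2) and Atf1 at -0.13 (adjusted p = 0.489) in p27-/-;Sox2+/- against WT. Mafg was the lowest between the mutants at -0.22 (adjusted p = 0.732). Among 26 genes of the ERK cascade and SRF regulation, the receptor gene Fgfr1 fell in both mutants, with values of 8.62 to 9.13 in WT, 8.04 to 8.26 in p27-/- and 7.91 to 8.26 in p27-/-;Sox2+/- samples. Its log2 fold changes were -0.70 (standard error 0.13, adjusted p = 0.0064, held in all 19 alternatives) and -0.75 (standard error 0.13, adjusted p = 0.00873, lost only without p27-/-;Sox2+/- replicate 2). Egfr fell by 0.54 in p27-/- against WT (standard error 0.14, adjusted p = 0.0313), a call lost without WT replicate 3 or 4 or p27-/- replicate 2 or 3 and in 2 of the other alternatives. Srf had 0.35 in both comparisons with WT (adjusted p = 0.136 and 0.198). Against WT, 2 of 26 were called in p27-/- and 1 of 26 in p27-/-;Sox2+/-. These are 7.69% and 3.85%, beside 7.78% and 2.71% of all tested genes. At an unadjusted p under 0.05 there were 6 and 3, or 23.1% and 11.5%, beside 24.1% and 17.8%. None of 26 was called between the mutants by limma, with 2 at an unadjusted p under 0.05 (7.69%, beside 6.65%), and Egfr had 0.26 and Elk4 -0.21.

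None of 14 genes of the JNK and p38 cascades passed the threshold in any comparison by limma, beside 7.78%, 2.71% and 0.145% of all tested genes. At an unadjusted p under 0.05 there were 4, 2 and 0, or 28.6%, 14.3% and 0%, beside 24.1%, 17.8% and 6.65%. The nearest to the threshold was Map3k1 at 0.29 in p27-/- against WT (unadjusted p = 0.00833, adjusted p = 0.0772). The lowest values were those of Mapk12 (-0.32, adjusted p = 0.118) and Map3k5 (-0.29, adjusted p = 0.15) against WT and Mapk8 (-0.14) between the mutants, where Map2k6 was highest at 0.22. Of 16 feedback inhibitors of ERK signalling and EGR proteins, Nab2, a corepressor of EGR1 that EGR1 itself induces, rose in p27-/-;Sox2+/- against WT (0.44, standard error 0.10, adjusted p = 0.0404). This call is 6.25% of the list, beside 2.71% of all tested genes. The other comparisons had 0 calls in this list, beside 7.78% in p27-/- against WT and 0.145% between the mutants. In the 3 comparisons in order, 3, 4 and 2 of 16 had an unadjusted p under 0.05. These are 18.75%, 25% and 12.5%, beside 24.1%, 17.8% and 6.65% of all tested genes. Nab2 had 7.39, 7.49, 7.15 and 7.39 in WT, 7.70, 7.65 and 7.72 in p27-/- and 7.83, 7.83 and 7.72 in p27-/-;Sox2+/- samples, so that both mutants lay above WT, although in p27-/- the difference of 0.34 had an adjusted p = 0.0638 and the call in p27-/-;Sox2+/- samples held in 7 of 19 alternatives. Spry1 was at -0.38 in p27-/- against WT (adjusted p = 0.0699) and Spred2 at -0.39 in p27-/-;Sox2+/- against WT (adjusted p = 0.15) and at -0.37 between the mutants (adjusted p = 0.632), where Spry1 was at 0.35 (adjusted p = 0.554).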

How the data were processed

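Bulk RNA-seq libraries of dissected IL came from 10 mice, 1 each. Per the labels and the study's methods, the authors amplified cDNA, aligned reads with STAR 2.5.2a, counted them per gene with RSEM 1.3.30 on the Ensembl release 89 transcriptome of GRCm38 without using strand, normalised with DESeq2 1.18.1 and deposited 1 table of log2 values, whose transformation is not named in the sources used here. Small values are compressed in it, which understates fold changes of low genes. The table holds no counts, so depth per sample is unknown and no interval that needs it is given.

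The 17268 genes with a 10-sample mean of at least 10 on the linear scale (3.32 in log2) were fitted with limma 3.58.1 in R 4.3.3 (mean-variance trend, all samples in 1 fit, Benjamini-Hochberg over all tested genes, threshold 0.05), and the model was tested on simulated data. Correlations and exact permutation tests used scipy 1.17.1, numpy 2.4.6 and pandas 2.3.3 in Python 3.11.15, and plots matplotlib 3.10.9. Groups are the genotypes that the labels give. The members and the gene lists were chosen with earlier results of these data known. All 10 members are named, from each pathway list the genes past the threshold and the highest and lowest, and the 8 genes nearest in profile to Fos and to the members' average. Alternatives were no filter, a mean of at least 50, the 2 groups alone, array weights, no trend, quantile normalization, median centring, Xist as covariate, the replicate number as a block, leaving out each sample, and for covariation pooled values and rank correlation.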

Additional observations from a re-analysis of the deposited data

Results flagged for a closer look

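Fosb in WT replicate 1 had a log2 value of 5.82, against 4.41 to 4.64 in the other 3 WT samples. The gap to the nearest of them was 0.838 of the range of the group, above Dixon's limit of 0.83 for 4 samples. Among 18 quantities examined in WT, the 10 genes and 8 marker list means, it was the only one past that limit, chance gives about 1 in 20, and 5.91% of all tested genes had such a WT sample. In the same sample the mean of the 6 macrophage markers was 6.81, against 5.97 to 6.42 in the other WT samples. The mean was also highest there for fibroblast and mural markers (8.36 against 7.94 to 8.09) and red blood cell markers (7.63 against 6.53 to 7.02). For melanotroph markers it was highest as well (13.49 against 13.03 to 13.24), and for stem cell markers lowest (7.27 against 7.42 to 7.53). Fosb had a value of 4.28 to 4.63 in the 6 mutant samples.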

How the results depend on the processing

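In p27-/- against WT and between the mutants, 0 members were called under every alternative. In p27-/-;Sox2+/- against WT, 1 was called with array weights (Egr1, 1.16, adjusted p = 0.0152) and 1 with the replicate block (Jun, -0.66, adjusted p = 0.0336), and 0 in the other 17. The labels name no pairing of same-numbered samples. Their deviations from the genotype means correlated between -0.24 and 0.18 over genes. With 3 or 4 mice per genotype, such values cannot exclude a shared litter or preparation. Differences near 0 changed sign, all from absolute values of at most 0.14: in p27-/- against WT Fosl2 (-0.0033) and Junb (0.0131) with array weights, Junb (0.0174) with quantile normalization and Jund (-0.0678) with the replicate block, in p27-/-;Sox2+/- against WT Fos (0.0239) with quantile normalization, Nr4a1 (-0.0193) with the Xist covariate and Jund (-0.0022) and Nr4a1 (-0.052) with the replicate block, and between the mutants Fosb (0.019) with array weights. The cause was not tested. With a sample left out, p27-/- against WT gave Fosl2 -0.10 to 0.38, Junb -0.16 to 0.13 and Jund -0.0678 to 0.19, p27-/-;Sox2+/- against WT gave Fos -0.21 to 0.12, Fosl2 -0.0753 to 0.36, Junb -0.0241 to 0.24, Jund -0.0022 to 0.25 and Nr4a1 -0.0925 to 0.24, and the mutants gave Fosb -0.13 to 0.0397 and Fosl2 -0.24 to 0.24. Of the 504 fold changes of members computed under the alternatives, 31 changed sign and 2 became called. The median r of the 45 pairs was 0.20 without subtracting the genotype means, 0.27 as Spearman's rho, 0.35 and 0.37 after the other scalings, and 0.20 (without WT replicate 1) to 0.48 with a sample left out. Pairs above 0.5 numbered 12 to 18 in these settings and 13 to 22 with a sample left out. Calls over all genes numbered 1343, 468 and 25 in the 3 comparisons, 595 to 1764, 209 to 1240 and 2 to 283 under the other settings, and 402 to 1707, 79 to 656 and 0 to 41 with a sample left out. The precision is limited by 3 or 4 mice per genotype.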

Other observations

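After Ifi44 and Ifit1 were seen among the genes nearest to Fos, 20 interferon-stimulated genes were listed and described. All 20 passed the filter on low values. Their r with Fos, with genotype means subtracted, had a median of 0.87 and ran from 0.51 (Mx2) to 0.98 (Ifi44), and all 20 were above 0.5, as were 9.15% of all tested genes. The mean log2 value of the 20 genes was 7.08, 6.55, 6.49 and 6.49 in WT, 6.60, 6.37 and 7.35 in p27-/- and 6.59, 6.33 and 6.35 in p27-/-;Sox2+/- samples. It was thus highest in p27-/- replicate 3, the sample with the highest Fos, and next in WT replicate 1. None of the 20 genes passed the threshold between genotypes by limma. The list was picked after the values were seen, and the genes share their libraries, so no test is given.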
